A study of Mus musculus with 8 samples.

Results

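The 38 fatty acid oxidation genes described here are enzymes, carriers and regulators. They take a fatty acid from the cell surface through its breakdown to acetyl-CoA. They were chosen by name, with earlier results of these data known. Of these 38 genes, 37 had a probe set (a group of short DNA probes for a transcript) that was joined to that gene alone, and 34 were bright enough to be tested, among 14237 genes tested on the arrays. Acsl1 was not analysed here. The cells were granulocytic myeloid-derived suppressor cells (Gr-MDSCs), neutrophil-like cells that hold back T cells, taken with magnetic beads from prostate tumors of castrated male mice fed enzalutamide. The mice were 12 to 16 weeks old and carried PB-Cre+, in which the probasin promoter drives Cre in prostate epithelium, with the floxed alleles PtenL/L, p53L/L and Smad4L/L and the reporters mTmGL/+ and LSL-LucL/+ (the CPPSML model), so the DMSO controls carry the same tumor and alleles as the drug arms. The cells were kept 6 h ex vivo with 0.1 µM Dactolisib, a dual PI3K and mTOR inhibitor (2 arrays), with 0.1 µM Dasatinib, an inhibitor of Src and Abl family kinases (2 arrays), or with DMSO (4 arrays, numbered 2 to 5). The question for these genes was whether either drug lowered the fatty acid oxidation program.

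Long-chain fatty acids enter the cell through carriers such as Cd36 and are joined to coenzyme A by the acyl-CoA synthetases. The carnitine shuttle then moves them into mitochondria, where each turn of beta-oxidation uses an acyl-CoA dehydrogenase, a hydratase, a hydroxyacyl-CoA dehydrogenase and a thiolase, and the electrons pass through electron transfer flavoprotein to the respiratory chain. Very long and branched chains are shortened in peroxisomes, and the PPAR receptors with the PGC-1 coactivators are known for driving many of these genes. Neutrophils are known for leaning on glycolysis, while fatty acid oxidation has been described in tumor-infiltrating suppressor cells.

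Over the 34 tested genes, 2 fell under Dactolisib when arrays were compared within 3 sets of alike arrays, and 32 did not pass the test. That is 5.88% of the 34, near the 4.66% of all genes that were lower in the same fit. The 2 were Acadm, the medium-chain acyl-CoA dehydrogenase, and Acsl5, an acyl-CoA synthetase, which were 25.1% and 21.3% below DMSO. Some marker genes of epithelial cells, macrophages, granulocytes and fibroblasts were lower in that fit as well, and 1 fibroblast marker was higher. No gene of the 34 passed under Dasatinib. The carnitine shuttle, with its rate-limiting enzyme Cpt1a, did not pass under either drug.

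The promoters of Acadm and Acsl5, and of Echs1, the hydratase that came next after them, are shown because these genes had the lowest p values among the 34. Each run covers 250 bases before to 50 bases after the RefSeq start site, on the gene's own strand, in GRCm38.p6, and capitals mark AGGTCA or its reverse complement TGACCT, the letters that nuclear receptors such as the PPARs are known to read. Acadm lies at chr3:153944594-153944893 on the minus strand, Acsl5 at chr19:55253119-55253418 on the plus strand and Echs1 at chr7:140116372-140116671 on the minus strand.
Acadm: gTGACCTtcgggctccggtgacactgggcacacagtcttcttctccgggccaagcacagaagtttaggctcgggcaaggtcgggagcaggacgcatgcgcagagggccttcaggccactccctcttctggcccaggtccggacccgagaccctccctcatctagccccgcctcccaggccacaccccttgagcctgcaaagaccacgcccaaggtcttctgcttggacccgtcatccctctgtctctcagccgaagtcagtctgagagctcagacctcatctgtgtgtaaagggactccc
Acsl5: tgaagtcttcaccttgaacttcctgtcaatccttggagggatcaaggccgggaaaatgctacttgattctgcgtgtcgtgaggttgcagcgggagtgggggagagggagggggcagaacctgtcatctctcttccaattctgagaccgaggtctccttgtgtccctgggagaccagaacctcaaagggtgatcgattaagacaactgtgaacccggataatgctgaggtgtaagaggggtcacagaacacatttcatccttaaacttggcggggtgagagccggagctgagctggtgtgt
Echs1: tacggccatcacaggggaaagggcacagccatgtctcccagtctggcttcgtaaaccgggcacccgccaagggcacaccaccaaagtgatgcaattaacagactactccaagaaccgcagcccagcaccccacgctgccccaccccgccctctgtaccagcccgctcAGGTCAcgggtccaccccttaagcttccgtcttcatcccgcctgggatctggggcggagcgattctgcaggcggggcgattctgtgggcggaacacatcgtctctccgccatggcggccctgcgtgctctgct
The letters began 249 bases before the Acadm start site and 83 bases before that of Echs1, and they were not in the Acsl5 window. They stood in the windows of 5 of the 27 fatty acid oxidation genes with a promoter in the table (18.5%: Cd36, Cpt1a, Acadm, Acadvl and Echs1), against 18.1% of all 27025 genes. The longer letters TCAAGGTCA, read by estrogen-related receptors, were in 0 of the 27 genes and in 0.466% of all genes, both strands searched. A match is a description of the sequence only.

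The values are log2 signals, so a difference of 1 is a doubling, and each gene is given by its probe set with the highest mean signal. The arrays fell into 3 sets by their correlation over all tested probe sets. Set A holds Dactolisib 1, DMSO 2 and DMSO 4, set B holds Dactolisib 2, Dasatinib 2 and DMSO 3, and set C holds Dasatinib 1 and DMSO 5. The lowest Pearson correlation within a set was 0.987 and the highest between sets 0.980, across probe sets. The 15 epithelial marker genes summed to 46893 and 48207 in linear signal on the arrays of set C, 7250 to 8833 in set A and 1925 to 2365 in set B, while the 15 granulocyte markers summed to 50199 and 56102 in set C, 66504 to 70689 in set A and 59558 to 62865 in set B. The neutrophil proteins S100a8 and S100a9 had log2 signals of 13.5 to 14.1 on all 8 arrays, whereas other granulocyte markers differed widely between them, from 9.29 to 12.94 for Ltf (lactoferrin), from 4.60 to 7.33 for Cd177 and from 7.48 to 9.70 for Mmp8 (neutrophil collagenase). In such bulk RNA, fewer cells of a type and less RNA per cell cannot be told apart. Each drug was compared with DMSO across all arrays and again within array sets, and since the sets were found on the same values, the p-values within sets do not take that choice into account.

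The fatty acid oxidation genes differed more between array sets than with either drug within them. Their set means spanned a median of 0.70 on the log2 scale. The median absolute difference within sets was 0.12 for Dactolisib and 0.09 for Dasatinib. The sets were found on the same values, so some spread between them is built in. A range of 3 means is also not the same measure as 1 difference. Ranges over all genes are not given here, so this spread is not shown to be particular to these genes. The set range was wider than the Dactolisib difference for 32 of 34 genes, the exceptions being Acsl5 and Acadvl. Hadh, the mitochondrial hydroxyacyl-CoA dehydrogenase, spanned 1.93, with mean signals of 7.22 in set C, 5.74 in set A and 5.29 in set B. Acsl3, Echs1, Etfa, Decr1, Crot, Acadm, Decr2 and Acaa2 also spanned over 1. Set C was highest for 21 genes and set B lowest for 21, the same order as the epithelial markers, whose part in these levels was not tested. Fibroblast markers had mean log2 signals of 6.38 and 7.18 in set C, 6.21 to 6.36 in set A and 5.02 to 5.22 in set B. Their part was not tested either. Set C was lowest for 11 of the 34 genes. Cpt1a was among them, with 8.57 in set A, 7.89 in set B and 7.65 in set C. Shares of all genes in these orders are not given here.

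**Figure D1:**
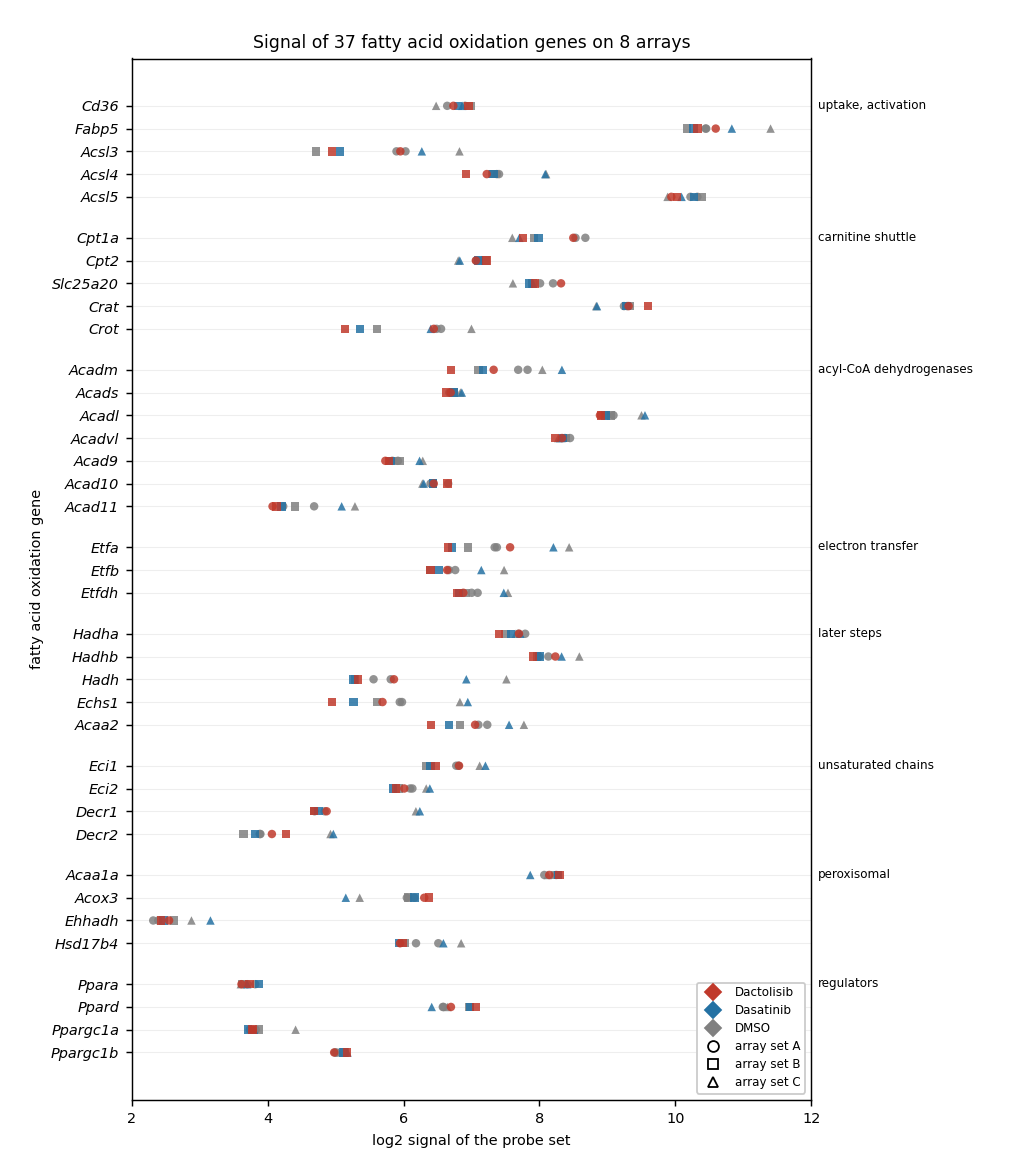
Log2 signal (x axis) of the 37 fatty acid oxidation genes with a probe set, grouped by role down the page. Each mark is an array, coloured by treatment and shaped by array set. By set mean, the triangles of set C stand to the right for 21 of the 34 tested genes, such as Hadh and Decr1. They stand to the left for 11, such as Cpt1a and Acox3.

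Across all arrays, with the sets ignored, no fatty acid oxidation gene passed limma at an adjusted p under 0.05 for Dactolisib against DMSO (0% of all genes tested did), and none passed an unadjusted p under 0.05 in either direction, where 3.72% of all genes were lower and 2.73% higher. The t-test that the study's methods name also gave 0 of the 34, with or without adjustment. Its share of all genes is not given here, so this count does not show a result particular to these genes. Their median difference was −0.17 against 0.01 for all genes, with 24 genes below 0 and 10 above, and the lowest adjusted p was 0.775. Without Dactolisib 2 the median was −0.03, and without DMSO 5 it was −0.09. The 95% intervals were wide at this size, with a median of 0.54 to either side of the estimate, and reached below −1 for 12 of the 34 genes.

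Within array sets, 2 of 34 genes (5.88%) passed as lower under Dactolisib, against 4.66% of all genes, and 0 passed as higher, against 2.24%. At an unadjusted p under 0.05, 6 genes were lower (17.6%, against 15.1% of all genes) and 2 were higher (5.88%, against 9.17%). These shares are near those of the arrays as a whole. Both calls were lost without DMSO 4, under quantile normalization, without the filter on dim probe sets and with all 8 arrays in 1 fit. Shares of all genes are not set beside these losses. Without Dactolisib 1, Dactolisib 2 or DMSO 3 the difference rests on 1 array set, so those fits cannot test whether the 2 calls hold. Without DMSO 2 the count was 4, and Acsl5 was not among them (limma adjusted p = 0.0637). Some other settings gave higher counts, which are listed in the closing section. The median of the 34 was −0.04 and that of all genes −0.00. Set beside the DMSO of their own set, 17 genes (50%) were lower on both Dactolisib arrays, against 35.4% of all genes, and 9 (26.5%) were higher on both, against 31.6%. Across the 34 genes the differences of Dactolisib 1 and Dactolisib 2, which share no DMSO array, had a Pearson correlation of 0.59, and across all genes 0.60. Both Dactolisib arrays lay below all 4 DMSO arrays for 6 genes (17.6%, against 10.8% of all genes), namely Acsl4, Acadl, Acad9, Acad11, Etfdh and Hsd17b4, and above them for Acox3 alone (2.94%, against 11.1%).

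Markers of other cell types moved in the same fit. Of 15 epithelial markers, 2 passed as lower (13.3%, against 4.66% of all genes) and 0 as higher, with a median of −0.07. They were Cldn4, a tight junction claudin, at −0.48 ± 0.09 (limma adjusted p = 0.026), and Cdh1, E-cadherin, at −0.33 ± 0.08 (limma adjusted p = 0.0487). The keratins Krt8 and Krt18 had −0.34 and −0.30 without passing. Over the 15 epithelial markers, 9 differences were below 0 and 6 were above, up to 0.16. On both Dactolisib arrays 7 were lower than the DMSO of their set (35.4% of all genes were) and 2 were higher (31.6%). The summed epithelial signal was 7250 on Dactolisib 1, against 8833 and 8430 on DMSO 2 and DMSO 4 of set A, and 1925 on Dactolisib 2, against 2115 on DMSO 3 of set B. Of 13 macrophage and monocyte markers tested, 3 passed as lower (23.1%), namely Cx3cr1, a chemokine receptor, at −0.75 ± 0.08 and the complement genes C1qa and C1qc at −0.35 and −0.44, and 0 as higher. Their median was −0.21, 6 were lower at an unadjusted p under 0.05 (46.2%, against 15.1% of all genes), and 10 were lower on both Dactolisib arrays than on the DMSO of their set. Their summed signal, over the 14 on the array, was 9894 on Dactolisib 1, against 9978 and 10173 on DMSO 2 and DMSO 4, and 11519 on Dactolisib 2, against 11943 on DMSO 3. Of 15 granulocyte markers, 2 passed as lower (13.3%), the gelatinase Mmp9 at −0.62 and the chemokine receptor Cxcr2 at −0.55, and 0 as higher. Over these 15, 11 differences were below 0 and 4 were above, up to 0.21. Of 11 fibroblast markers, 1 passed as lower (9.09%) and 1 as higher (9.09%, against 2.24% of all genes), with a median of −0.02. Endothelial, T cell, B cell and adipocyte markers had 0 calls, with medians of 0.05, −0.01, 0.08 and 0.11. The part of these markers in the differences of Acadm and Acsl5 was not tested.

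**Figure D2:**
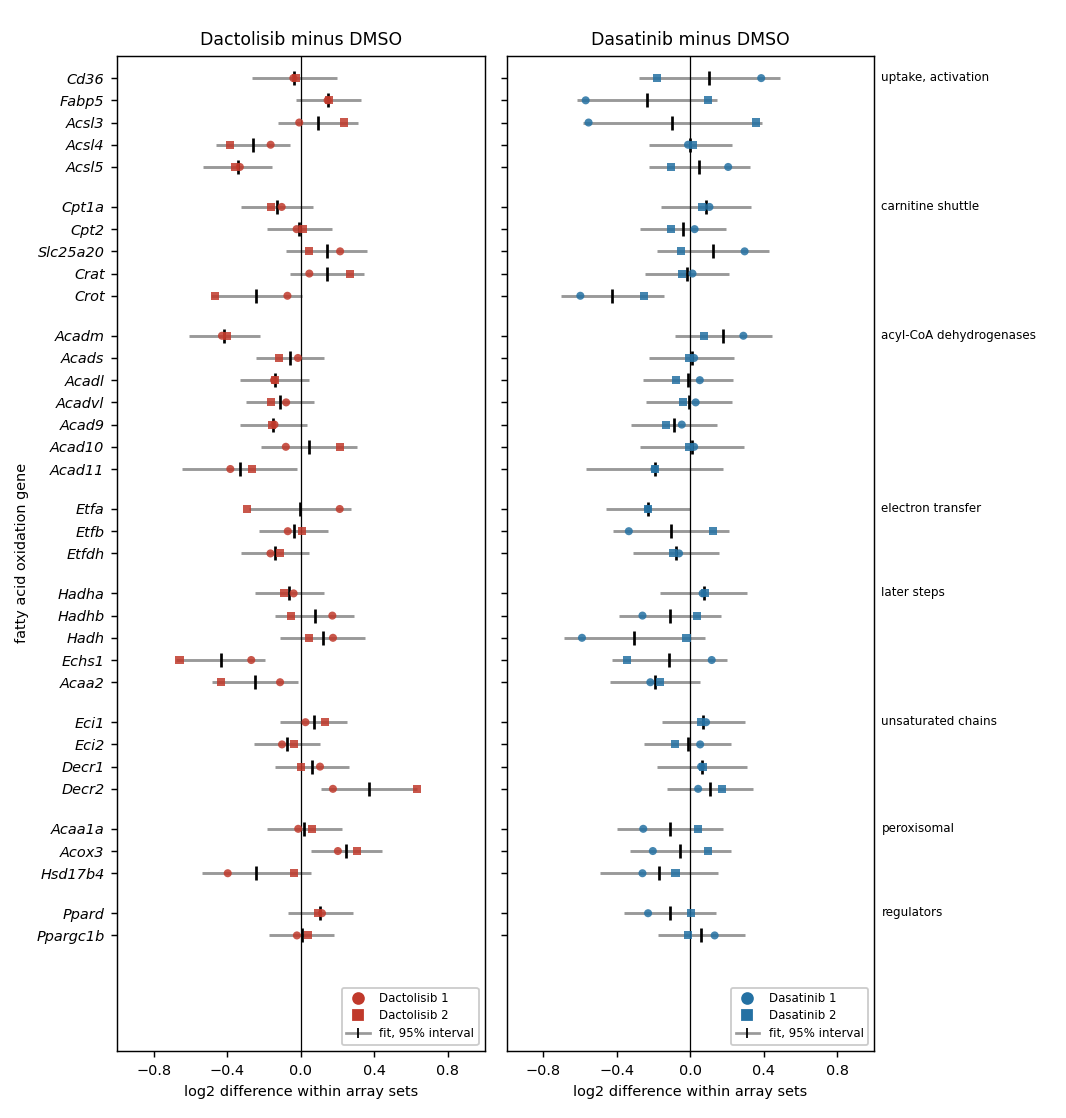
Log2 difference from the DMSO arrays of the same array set (x axis) for the 34 tested genes, Dactolisib in the left panel and Dasatinib in the right. Points are the drug arrays, ticks the limma estimates within sets and bars their 95% intervals; for Acadm and Acsl5 both Dactolisib points stand below 0 and close together, at −0.43 and −0.40 and at −0.33 and −0.36.

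In uptake and activation, Acsl5 fell. It had log2 signals of 9.94 and 10.02 on Dactolisib 1 and 2 and 10.09 and 10.28 on Dasatinib 1 and 2, against 10.32, 10.38, 10.22 and 9.89 on DMSO 2 to 5. The Dactolisib arrays were below every DMSO array except DMSO 5, which belongs to another set. The difference within sets was −0.34 ± 0.08 (SE, limma adjusted p = 0.0485). Acsl4, which favors arachidonic acid, differed by −0.26 ± 0.09 (limma adjusted p = 0.122) and its 2 other probe sets by −0.04 and 0.07. Fabp5, a cytosolic fatty acid carrier with the highest signal of its role, had 10.59 and 10.33 on Dactolisib, against 10.44, 10.17, 10.45 and 11.40 on DMSO 2 to 5. Its difference was 0.15 ± 0.08, and the carrier Cd36 had −0.04 ± 0.10, with an interval from −0.27 to 0.19. Acsl3 differed by 0.10 ± 0.09.

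The carnitine shuttle had 0 of 5 genes called. Cpt1a, which makes the acylcarnitine and sets the pace of the pathway, had 8.50 and 7.75 on Dactolisib 1 and 2, against 8.68, 7.92, 8.53 and 7.60 on DMSO 2 to 5. Dactolisib 1 and 2 stood 0.11 and 0.17 lower on the log2 scale than DMSO within their sets, and the interval of the difference ran from −0.33 to 0.07. The other Cpt1a probe sets differed by 0.03 ± 0.16 and −0.02 ± 0.09. On both of these Dactolisib 1 was above the DMSO of its set, by 0.20 and 0.04, and Dactolisib 2 was below. Cpt2, which turns the acylcarnitine back inside the mitochondrion, differed by −0.01 ± 0.08, and the carrier Slc25a20 by 0.14 ± 0.09. Crat, carnitine acetyltransferase, had 9.31 and 9.60 on Dactolisib, against 9.24, 9.33, 9.29 and 8.84 on DMSO 2 to 5. Its 3 probe sets all gave a positive difference, 0.14, 0.27 and 0.26, none of which passed, and the brightest has the x_at suffix that Affymetrix gives where probes also match other transcripts. The peroxisomal enzyme Crot had 6.44 and 5.14 on Dactolisib, against 6.55, 5.61, 6.49 and 7.00 on DMSO. On this probe set Crot followed the array sets, and its difference within them was −0.24 ± 0.11 (limma adjusted p = 0.218). The other Crot probe set lay between 5.42 and 6.02 on all arrays and differed by 0.07 ± 0.08.

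Among the 7 acyl-CoA dehydrogenases, which take the first step of each turn, 6 were lower on both Dactolisib arrays than on the DMSO of their set. Of all genes, 35.4% were. In this small group 1 gene passed as lower (14.3%, against 4.66% of all genes). Acadm had 7.33 and 6.70 on Dactolisib 1 and 2 and 8.33 and 7.17 on Dasatinib 1 and 2, against 7.69, 7.10, 7.82 and 8.04 on DMSO 2 to 5. Dactolisib 1 was above DMSO 3, so the groups overlap across sets and not within them. The difference within sets was −0.42 ± 0.08, with a 95% interval from −0.61 to −0.22 (limma adjusted p = 0.0312). Acadl, the long-chain enzyme, had 8.89 and 8.91 on Dactolisib, against 9.09, 9.05, 8.98 and 9.50 on DMSO, and both Dactolisib arrays were below all 4. Its difference was −0.14 ± 0.08. Acadvl, Acads and Acad9, the very-long-chain and short-chain enzymes and a paralog known for assembling complex I, differed by −0.12, −0.06 and −0.15. Acad11 differed by −0.33 ± 0.13 at low signals of 4.07 and 4.13 on Dactolisib, against 4.23 to 5.28 on DMSO. The other Acad11 probe set gave 0.10 ± 0.09 and was higher on both Dactolisib arrays than on the DMSO of their set. On the brightest probe sets only Acad10 was positive, at 0.04 ± 0.11, and its other probe set gave −0.05 ± 0.10.

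None of the 3 electron transfer genes passed. Etfdh, which hands the electrons to ubiquinone, had 6.88 and 6.79 on Dactolisib, against 7.00, 6.91, 7.09 and 7.54 on DMSO 2 to 5. Both Dactolisib arrays were below all DMSO arrays, and the difference within sets was −0.14 ± 0.08. Etfa had 7.57 and 6.65 on Dactolisib, against 7.37, 6.94, 7.34 and 8.44 on DMSO, with Dactolisib 1 above and Dactolisib 2 below the DMSO of its set. Its difference was −0.01 ± 0.12, and that of its partner Etfb −0.04 ± 0.08.

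For the later mitochondrial steps, Echs1 came close to the threshold. This short-chain enoyl-CoA hydratase had 5.69 and 4.95 on Dactolisib 1 and 2, against 5.94, 5.61, 5.98 and 6.83 on DMSO 2 to 5. It was lower on both Dactolisib arrays than in their sets, by 0.27 and 0.66 on the log2 scale, and the difference was −0.44 ± 0.10 (limma adjusted p = 0.052). The mitochondrial thiolase Acaa2 differed by −0.25 ± 0.10 on its brightest probe set (limma adjusted p = 0.186), while its 2 other probe sets passed at −0.41 and −0.50 (limma adjusted p = 0.0393 and 0.0176). The trifunctional protein did not pass in either subunit. Hadhb had 8.23 and 7.91 on Dactolisib, against 8.13, 7.96, 8.00 and 8.59 on DMSO, and differed by 0.07 ± 0.09. The other Hadhb probe sets differed by −0.08 ± 0.11 and −0.03 ± 0.11. Hadha differed by −0.06 ± 0.08. Hadh differed by 0.12 ± 0.10.

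Of the 4 enzymes for unsaturated chains, 0 passed and 3 had a positive difference. Decr2, the peroxisomal dienoyl-CoA reductase, had 4.06 and 4.27 on Dactolisib, against 3.89, 3.64, 3.88 and 4.92 on DMSO 2 to 5, and was higher on both Dactolisib arrays than in their sets. The difference was 0.37 ± 0.11 (limma adjusted p = 0.0983), at signals near the filter on dim probe sets, which was 3.98. Eci1, a mitochondrial enoyl-CoA isomerase, had 6.82 and 6.47 on Dactolisib, against 6.78, 6.34, 6.81 and 7.12 on DMSO, and differed by 0.07 ± 0.08. Decr1 differed by 0.06 ± 0.09 and Eci2 by −0.07 ± 0.08.

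In peroxisomes, Acox3, an acyl-CoA oxidase for branched chains, had 6.30 and 6.37 on Dactolisib, against 6.16, 6.06, 6.05 and 5.35 on DMSO 2 to 5. Both Dactolisib arrays were above all DMSO arrays, and the difference was 0.25 ± 0.08 (limma adjusted p = 0.125). On the other Acox3 probe set, DMSO 3 had 5.90, above 5.86 and 5.79 on Dactolisib, and the difference was 0.02 ± 0.09. Hsd17b4, the D-bifunctional protein, differed by −0.24 ± 0.13 on its brightest probe set and by −0.45 ± 0.08 on its other, which passed (limma adjusted p = 0.022). Of these genes' 57 probe sets past the filter, 5 passed as lower (8.77%, against 4.20% of all 30024 tested) and 0 as higher (against 2.19%). The 5 were those of Acadm, Acsl5, Acaa2 and Hsd17b4. Of the 18 genes with over 1 probe set past the filter, 7 had differences of both signs. Acaa1a, the peroxisomal thiolase, had 8.14 and 8.30 on Dactolisib, against 8.07, 8.23, 8.25 and 8.12 on DMSO, a difference of 0.02 ± 0.09 on an x_at probe set. Its other, dimmer probe set gave −0.27 ± 0.08 (limma adjusted p = 0.0894).

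Neither regulator that was tested passed. Ppard had 6.70 and 7.07 on Dactolisib, against 6.59, 6.97, 6.58 and 6.64 on DMSO 2 to 5, and differed by 0.11 ± 0.08, and Ppargc1b differed by 0.00 ± 0.08. Ppara, the receptor best known for this program in liver, was below the filter, with 3.61 and 3.73 on Dactolisib and 3.70 and 3.87 on Dasatinib, against 3.70, 3.63, 3.82 and 3.60 on DMSO. Ehhadh, a PPARA target in liver, was the dimmest gene, with 2.55 and 2.43 on Dactolisib and 3.16 and 2.47 on Dasatinib, against 2.32, 2.62, 2.39 and 2.88 on DMSO. Ppargc1a was below the filter as well, at 3.71 to 4.41 on all arrays. These 3 genes were not tested.

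**Figure D3:**
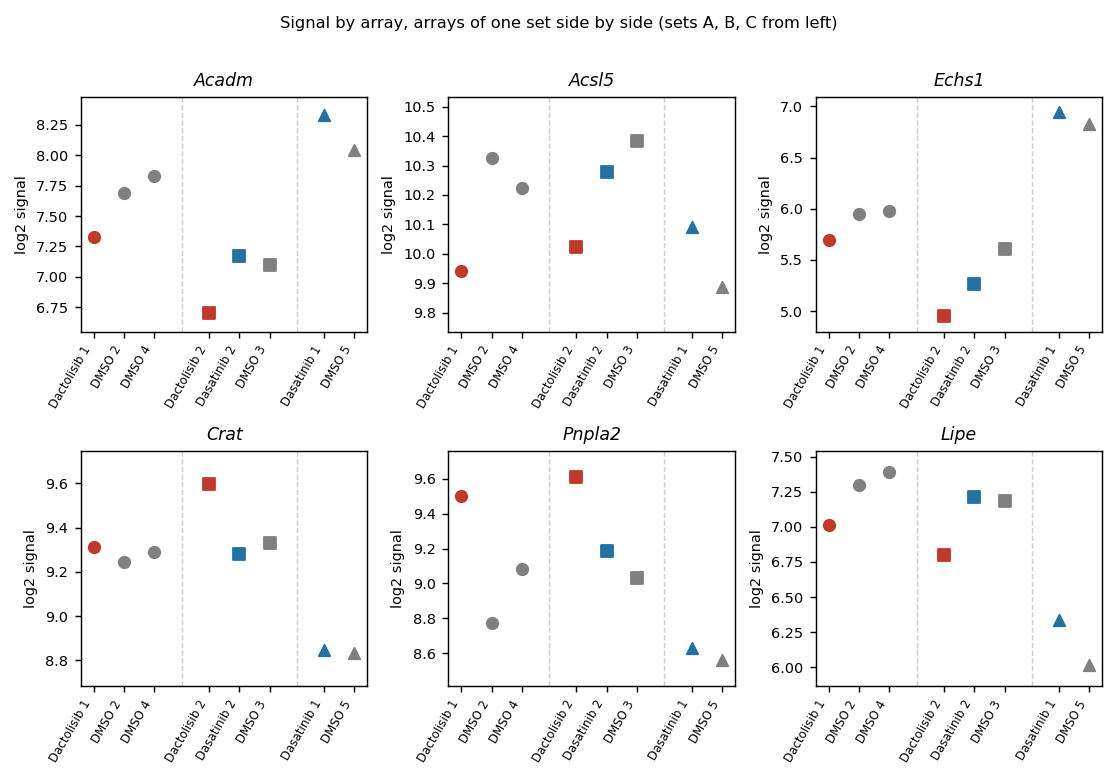
Log2 signal (y axis, ranges differ and do not start at 0) of 6 genes on the 8 arrays, with arrays of the same set side by side and colours as treatments (red Dactolisib, blue Dasatinib, gray DMSO). In sets A and B the Dactolisib array is the lowest for Acadm, Acsl5, Echs1 and Lipe and the highest for Crat and Pnpla2.

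Under Dasatinib, which was compared with the same DMSO arrays, the fatty acid oxidation genes gave no call in either fit. Across all arrays limma called 0 of 34 (0% of all genes). At an unadjusted p under 0.05 it also called 0, where 0.162% of all genes were lower and 0.140% higher. The methods' t-test gave 0 with or without adjustment, and its share of all genes is not given here. Within sets 0 of 34 passed (0% of all genes), 2 were lower at an unadjusted p under 0.05 (5.88%, against 2.10% of all genes) and 0 higher (against 1.86%), with a lowest adjusted p of 0.85. The median difference was −0.01 across arrays and −0.03 within sets. On both Dasatinib arrays 8 genes were lower than the DMSO of their set (23.5%, against 22.8% of all genes) and 6 were higher (17.6%, against 21.9%). No gene had both Dasatinib arrays below all DMSO arrays (2.47% of all genes did) or above them (1.66%). Of 11 fibroblast markers tested, 7 were lower within sets at an unadjusted p under 0.05 (2.10% of all genes were). Their median was −0.50, and 0 passed after adjustment. Over the 12 on the array, they summed to 1691 on Dasatinib 1, against 3366 on DMSO 5, and to 448 on Dasatinib 2, against 510 on DMSO 3. Epithelial, macrophage and granulocyte markers had medians of 0.10, 0.06 and −0.02. The part of these markers was not tested.

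The 2 genes with the lowest p under Dasatinib were Crot and Etfa. Crot had 6.40 and 5.36 on Dasatinib 1 and 2, against 7.00 on DMSO 5 of set C and 5.61 on DMSO 3 of set B. Both Dasatinib arrays were below the DMSO array of their set, and the difference was −0.42 ± 0.12. The other Crot probe set went the other way, with a difference of 0.22. It had 5.86 and 5.87 on Dasatinib 1 and 2, against 5.42 on DMSO 5 and 5.87 on DMSO 3. Etfa had 8.21 and 6.71 on Dasatinib 1 and 2, against 8.44 on DMSO 5 and 6.94 on DMSO 3, a difference of −0.23 ± 0.10. Both had a limma adjusted p of 0.85. Across the 34 genes, the differences of Dasatinib 1 and Dasatinib 2 had a Pearson correlation of −0.17, and across all genes −0.11. For Cpt1a the interval of the Dasatinib difference ran from −0.16 to 0.33 and for Acadm from −0.08 to 0.44. Within sets the 95% interval lay within 0.5 to either side of 0 for 29 of the 34 genes under Dasatinib and for 28 under Dactolisib, and with the sets ignored for 11 and 7 of them.

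Set directly against each other, Dactolisib and Dasatinib did not differ in any of the 34 genes at an adjusted p under 0.05, with the array sets ignored (0% of all genes) or taken into account (0%). At an unadjusted p under 0.05 limma gave 0 genes with the sets ignored (2.40% of all genes were lower under Dactolisib and 1.44% higher). Within sets 3 were lower (8.82%, against 9.78% of all genes) and 2 higher (5.88%, against 5.07%). The methods' t-test, with the sets ignored, gave 0 with or without adjustment, and its share of all genes is not given here. Acadm was 0.56 ± 0.11 lower on the log2 scale under Dactolisib than under Dasatinib within sets, with an interval from −0.82 to −0.29 (limma adjusted p = 0.113). Acsl5 differed by −0.35 ± 0.12 (limma adjusted p = 0.253). The call of both genes against DMSO under Dactolisib and not under Dasatinib is therefore not a shown difference between the drugs.

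**Figure D4:**
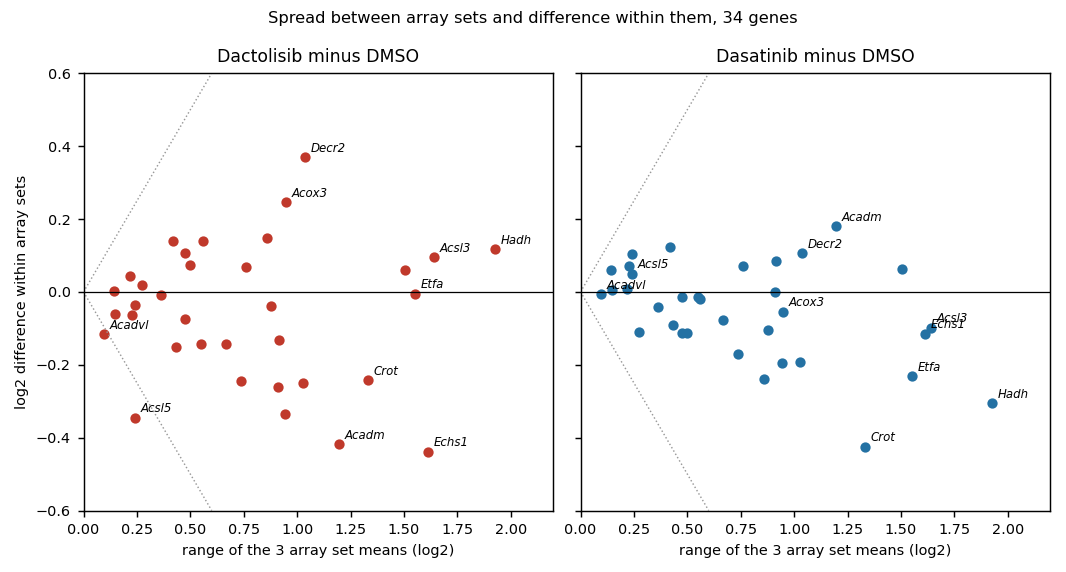
Difference from DMSO within array sets (y axis, log2) against the range of the 3 set means (x axis, log2) for the 34 tested genes, Dactolisib left and Dasatinib right. Dotted lines mark equal size; in the Dactolisib panel Acsl5 and Acadvl lie outside them and the other 32 genes lie between them.

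Genes next to the pathway were described from 3 further lists. Of 24 other fatty acid oxidation genes tested, 2 fell under Dactolisib within sets (8.33%, against 4.66% of all genes) and 0 rose (against 2.24%), with a median of −0.08. Scp2, a peroxisomal sterol and lipid carrier with a thiolase form, had 8.03 and 7.55 on Dactolisib, against 8.47, 8.00, 8.46 and 8.76 on DMSO 2 to 5, a difference of −0.45 ± 0.08 (limma adjusted p = 0.0212). Ech1, which shifts double bonds of unsaturated chains, had 7.19 and 6.56 on Dactolisib, against 7.59, 7.07, 7.62 and 7.74 on DMSO, a difference of −0.45 ± 0.08 (limma adjusted p = 0.0218). In both genes each Dactolisib array was below the DMSO arrays of its set.

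Of 12 PPAR target genes tested, 1 fell (8.33%, against 4.66% of all genes) and 0 rose (against 2.24%), with a median of 0.05. Lpl, lipoprotein lipase, which frees fatty acids from circulating fat, had 6.72 and 6.03 on Dactolisib, against 7.00, 6.55, 7.28 and 7.57 on DMSO 2 to 5. The difference was −0.46 ± 0.10 (limma adjusted p = 0.0437). Lpl is also known from macrophages, whose markers had a median of −0.21 in this fit, and their part in the Lpl difference was not tested.

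Lipid stores held genes that moved in either direction. Pnpla2, adipose triglyceride lipase, which takes the first chain off stored fat, had 9.50 and 9.61 on Dactolisib and 8.63 and 9.19 on Dasatinib, against 8.77, 9.03, 9.08 and 8.56 on DMSO 2 to 5. Both Dactolisib arrays were above every other array, and the difference within sets was 0.58 ± 0.11, or 49.2% above DMSO (limma adjusted p = 0.0258). Lipe, hormone-sensitive lipase, which takes the next chain, had 7.01 and 6.80 on Dactolisib, against 7.30, 7.19, 7.39 and 6.02 on DMSO 2 to 5, and fell by 0.36 ± 0.08 on the log2 scale (limma adjusted p = 0.0443). The lysosomal lipase Lipa had 8.89 and 9.32 on Dactolisib, against 9.40, 9.57, 9.34 and 9.34 on DMSO, and fell by 0.38 ± 0.09 (limma adjusted p = 0.0482). Counted over this list, 1 of 12 tested genes was higher (8.33%, against 2.24% of all genes) and 2 were lower (16.7%, against 4.66%), with a median of 0.13. At an unadjusted p under 0.05, 6 were higher (50%, against 9.17%) and 3 lower (25%, against 15.1%). The calls of Lipe and Lipa, and that of Lpl, were also lost under quantile normalization, without the filter and with all 8 arrays in 1 fit. Adipocyte markers summed to 177 and 214 on Dactolisib and 140 to 212 on DMSO, over 5 genes of which 3 passed the filter, and their part was not tested.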

How the data were processed

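RNA of 8 Gr-MDSC samples was hybridised to Affymetrix mouse genome arrays, 1 array per sample. The authors deposited a table of log2 signals for 45101 probe sets, used as deposited. The submitters' notes name MAS5 and the study's methods name the oligo package, and likewise Trizol and RNeasy for the RNA, which was not settled here. Array medians lay between 4.82 and 4.87. Titles gave the treatments, because both Dasatinib samples carry Dactolisib as their treatment label. The deposited table gives no counts or detection calls, so precision is limited by the number of arrays. No source says that arrays of a group come from separate mice or cultures, so p-values measure the spread between arrays, which may be technical.

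Probe sets were joined to genes through the platform annotation, with 34945 joined to 1 gene, 932 to several and 9160 to none. The 64 control probe sets were left out, and the 30024 in the upper 66.7% by mean signal were tested by moderated linear models in limma 3.58.1 under R 4.3.3, with Benjamini-Hochberg adjusted p-values over all of them and a threshold of 0.05. Fits used the 6 arrays of a drug and DMSO, or all 8 arrays for the direct comparison, without and with the array set (average linkage on 1 minus the Pearson correlation) as a block. The 95% intervals are those of limma and are not adjusted. Promoters are from RefSeq. The calculation was tested on simulated data. The genes, lists and array sets were chosen with earlier results of these data known. Values on every array are given for members that passed, for the member with the lowest p and the brightest member of each role, for the 2 dimmest, and for genes of the further lists that passed, at most 4 per list. Cpt1a, Acad11, Ppargc1a and the named cell type markers were added after their values were seen. Alternatives were quantile normalization, adding 32 before log2, other filters, a trended and robust prior, averaging the probe sets of a gene, the methods' t-test, all 8 arrays in 1 fit, and leaving out each array.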

Additional observations from a re-analysis of the deposited data

Results flagged for a closer look

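Among the 4 DMSO arrays, 1 array stood far from the other 3 in 4 of the 37 fatty acid oxidation genes examined, by Dixon's criterion for 4 samples, which chance meets in about 1 of 20 groups. Acsl4 had a log2 signal of 8.10 on DMSO 5, against 7.31 to 7.40 on the others. Decr1 had 6.18 on DMSO 5, against 4.68 to 4.84. Acox3 had 5.35 on DMSO 5, against 6.05 to 6.16. Ppard had 6.97 on DMSO 3, against 6.58 to 6.64. DMSO 5 is the only DMSO array of set C, and DMSO 3 is the only one of set B. The criterion takes the 4 arrays as alike, whereas these come from different array sets. It was run on these 37 genes only, so no share of all genes stands beside the count.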

How the results depend on the processing

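Within array sets, the count of fatty acid oxidation genes called under Dactolisib, 2 as reported, was 4 after adding 32 before log2, 0 without a filter, 5 with only the brightest 33.3% of probe sets (29 genes tested), 0 under quantile normalization, 5 when the probe sets of a gene were averaged and 0 with all 8 arrays in 1 fit. It ranged from 0 to 4 when each array was left out. It was 0 without Dactolisib 1, Dactolisib 2, DMSO 3 or DMSO 4, and 4 without DMSO 2, Acsl5 not among them. Without Dactolisib 1, Dactolisib 2 or DMSO 3, no probe set on the array passed, and the difference then rests on 1 set. Adjusted p for Acadm ran from 0.00564 to 0.249 and for Acsl5 from 0.00266 to 0.265, with both differences below 0 under every alternative run. The share of all genes called under each alternative is not set beside these counts. They therefore do not show a result particular to these genes. The cause of this dependence was not tested.

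The median of the 34 genes under Dactolisib within sets was 0.0023 with quantile normalization and −0.0604 with only the brightest 33.3% of probe sets. Under Dasatinib within sets it was −0.0527 with all 8 arrays in 1 fit and ranged from −0.0293 to 0.0157 when each array was left out. For Dactolisib against Dasatinib it was 0.0050 with quantile normalization within sets, and with arrays left out it ranged from −0.0347 to −0.0008 within sets and from −0.4576 to 0.0383 with the sets ignored. With 1 array left out within sets, 0 to 1 genes were called in that comparison. With the replicate block, Dactolisib against Dasatinib gave 0 calls and a median of −0.1617, and the deviations of the same-numbered arrays had a correlation of 0.56; arrays of a drug and DMSO share too few numbers for such a fit. Without array set C, chosen after seeing the data, Dasatinib gave 0 calls and a median of −0.0837. Pnpla2, Scp2 and Ech1 lost their call only where Dactolisib 1, Dactolisib 2 or DMSO 3 was left out, and Lpl, Lipe and Lipa also without DMSO 4.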
